A study of Mus musculus with 25 samples.

Results

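The transcriptomes of 2 cultured mouse melanoma lines, B16F10 luc2 and HCmel12, were compared gene by gene. The libraries were chosen by the cell line label alone, which gave 5 of B16F10 luc2 and 5 of HCmel12 among 25 libraries of 5 lines. Of the 55385 genes in the files, 15247 had enough counts to be tested. B16F10 luc2 is a purchased subline of B16F10 that carries a luciferase gene and was classed by the study as a melanoma of intermediate metastatic potential. HCmel12 is a line grown out of a primary tumour of the HGF-CDK4(R24C) strain and was classed as a melanoma of low metastatic potential. Mice of that strain overproduce hepatocyte growth factor and carry a CDK4 that p16 does not bind. The other lines of the series (WT31, RET and D4M) were in the same fit, where they bear on the filter, the scaling, the spread and the number of tests, and their levels are given where they place a difference.

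All 10 cultures were without drugs, had been thawed for no more than a week and were harvested at 50% confluency. Each line is 1 line, so the 5 biological replicates sampled cultures of that line and not independent tumours. Growth medium differed as well. B16F10 luc2 was kept in RPMI medium with serum and antibiotics, whereas the medium of HCmel12 also contained Hepes, ß-mercaptoethanol, glutamine, pyruvate and non-essential amino acids. Line and medium therefore cannot be told apart. Library totals of the 10 cultures were between 24204392 and 25406305 counts, so that 3 counts, taken as the smallest detectable amount, were worth 0.118 to 0.124 CPM (counts per 1000000 counts of the library). Intervals of ratios to a line near 0, and floors, cover counting error only.

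HCmel12 replicate 4 stood apart from its group. Among genes with a mean over 3 CPM in the line, 163 were beyond all 4 other HCmel12 libraries and over 2-fold above their mean, and 30 were likewise below it. The other HCmel12 libraries had 3 to 19 and 7 to 34 such genes. B16F10 luc2 libraries had 1 to 8 and 3 to 9. Mitochondrially encoded mRNAs took 7.4% of its counts, against 3.73% to 5.41% in the other HCmel12 libraries and 2.59% to 3.98% in B16F10 luc2. Where leaving this library out ended a call, turned a sign or moved a called difference by over 1.5 times, both values are given.

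Melanoma arises from melanocytes, pigment cells that descend from the neural crest. Their identity rests on transcription factors such as Mitf, Sox10 and Pax3, which maintain the genes of melanin synthesis. Melanoma cells can lose pigment genes and take on features of earlier neural crest cells, of Schwann cells or of mesenchymal cells. Growth in these tumours is commonly driven through receptor tyrosine kinases and the RAS-ERK pathway. The Cdkn2a locus, which encodes the tumour suppressors p16 and p19ARF, is among the loci most often lost.

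Over the whole transcriptome the lines differed widely. With voom and limma, 10543 of 15247 tested genes (69.1%) had a Benjamini-Hochberg adjusted p under 0.05, of which 5384 (35.3%) were higher and 5159 (33.8%) lower in B16F10 luc2 than in HCmel12. When a change of at least 2-fold was required as well, 4289 genes were called (28.1%), of which 1853 (12.2%) were higher and 2436 (16%) lower. The median log2 fold change of all tested genes was 0.003, the median of its absolute value 0.53 and the median standard error 0.12, so that differences far below 2-fold passed the test. Since the filter on low counts used all 5 lines, 563 of the tested genes had no more than 3 counts in any of the 10 libraries, and 20 of these were called. Without such genes the median was 0.01. Of 1497 tested genes in the gene lists, 86 were of this kind. Of the 15247 tested genes, 8276 were called and had sets of 5 values that did not overlap. Since 10543 genes were called, a lack of overlap was the usual case for a called gene. A difference of at least 16-fold was fitted for 353 genes in the higher and 585 in the lower direction. Fold changes are B16F10 luc2 relative to HCmel12, and p-values are those of this fit unless stated. Levels are given as mean ± SD in CPM over 5 libraries where the single values are not listed.

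**Figure D1:**
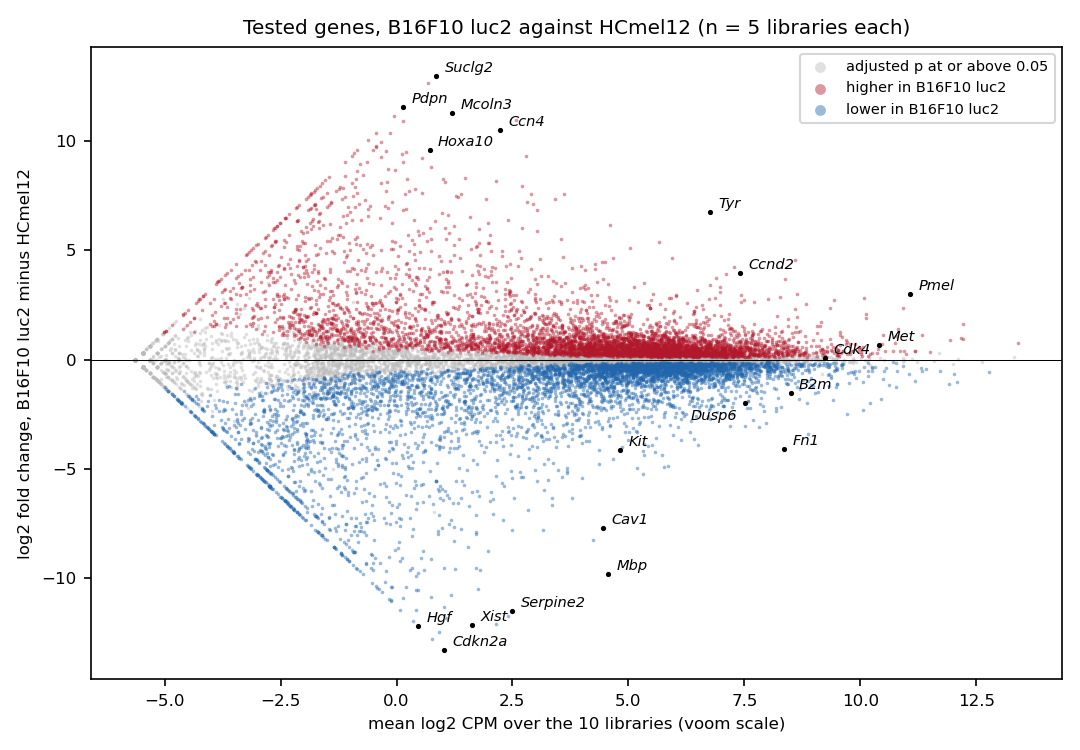
Each point is 1 of the 15247 tested genes, with its mean level over the 10 libraries (log2 CPM on the voom scale) on the horizontal axis and its log2 fold change, B16F10 luc2 minus HCmel12, on the vertical axis. Red and blue points passed the test (5384 higher, 5159 lower) and grey points did not. The oblique edges are genes at 0 in one line, whose fitted fold change depends on the small count added by voom. Tyr, Ccnd2 and Pmel stand out among abundant genes on the upper side and Fn1 and Kit on the lower side.

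A group of genes was found in one of the lines but not in the other. Genes with a mean of at least 1 CPM and over 3 counts in every library of one line, and no more than 3 counts in any library of the other, numbered 144 for B16F10 luc2 (0.26% of all genes in the files, 118 of them protein-coding) and 273 for HCmel12 (0.493%, 229 protein-coding). Of those found in B16F10 luc2, 31 reached 10 CPM, and of those found in HCmel12, 68 did. The 144 genes were above 3 counts in at least 1 library of RET in 130 cases, of WT31 in 88 and of D4M in 79. For the 273 genes the order was different, with 203 found in D4M, 189 in WT31 and 112 in RET. Chromosome 6 held 22 of the genes found in B16F10 luc2 (15.3%, against 5.09% of all tested genes). Chromosomes X and 12 each held 9 of them (6.25%, against 3.18% and 3.58%). Chromosomes 1, X and 18 held 27, 24 and 16 of those found in HCmel12 (9.89%, 8.79% and 5.86%, against 5.82%, 3.18% and 2.72%).

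Suclg2, a subunit of the GTP-forming succinyl-CoA ligase of the citric acid cycle, had the largest fitted difference on the side of B16F10 luc2. It was at 166, 167, 161, 163 and 159 CPM in B16F10 luc2 and at 0 in all 5 HCmel12 libraries, at least 1317-fold higher, although 20.7% of its sequence, in stretches of 31 bases, is shared with a predicted gene. It lies on chromosome 6 from 95473009 to 95718800 (GRCm38). The other 3 lines expressed it at 66.2, 155 and 56.6 CPM (WT31, RET and D4M), so that HCmel12 was the only line of the series without it. Rras2, a RAS-related GTPase, had the same pattern, with 23.2, 23.3, 20.1, 18.6 and 23.3 CPM in B16F10 luc2 and a single HCmel12 library above 0 (0.0413 CPM). The means of the other lines were 26.0 to 33.5 CPM. Crim1, a membrane protein that binds BMPs, was at 48.4 ± 4.84 CPM in B16F10 luc2 and above 0 in 1 HCmel12 library, a ratio of 5908-fold, with a counting interval of 1060.3 to 233349, and the means of the other lines were 38.6 to 81.4 CPM.

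Some other leading genes of B16F10 luc2 were shared mainly with RET. Gsdmc, a gasdermin, was at 129 ± 13 CPM in B16F10 luc2, at 0 in HCmel12 (at least 1039.7-fold higher) and at 193 CPM in RET. Of its 31-base sequences, 23.9% occur in other genes, mostly in a paralog. Pdpn, the membrane glycoprotein podoplanin, was at 61 ± 4.15 CPM against 0 (at least 492-fold higher), and Foxr2, a forkhead factor of the X chromosome, at 60.6 ± 3.66 CPM against 0 (at least 489-fold higher). RET had 36.9 and 32.6 CPM of these genes, and D4M had 10.3 CPM of Pdpn. Mcoln3, a cation channel of endosomes and lysosomes, was abundant in B16F10 luc2 alone among the 5 lines. It was at 107, 116, 119, 112 and 113 CPM in B16F10 luc2 and at 0, 0.123, 0, 0.0412 and 0.0413 CPM in HCmel12, a ratio of 2766-fold, with a counting interval of 1185 to 8519, and the means of the other lines were at most 0.152 CPM. Ccn4, a secreted matricellular protein of the Wnt pathway, was at 181 ± 17.4 against 0.107 ± 0.0225 CPM (log2 fold change 10.51, SE 0.87, adjusted p = 4.7e-11).

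Further leading genes of B16F10 luc2 were at or near 0 in HCmel12. Ptprk, a receptor-type tyrosine phosphatase, was at 26.3, 28.7, 23.6, 27.6 and 28 CPM in B16F10 luc2 and at 0 in HCmel12 (at least 216-fold higher). RET and D4M had 31.9 and 39.7 CPM of it, and WT31 had 0.0595 CPM. Ust, a sulfotransferase of chondroitin and dermatan sulfate, was at 33.3 ± 1.37 CPM in B16F10 luc2 and above 0 in 1 HCmel12 library, a ratio of 4057-fold, with a counting interval of 728 to 160234, while the other lines had 14.9 to 26.7 CPM. Hspb8, a small heat shock protein, was at 24.8 ± 1.12 CPM against a single HCmel12 library above 0. Brs3, a receptor of the bombesin family on the X chromosome, was at 21.5 ± 1.87 CPM against 0 (at least 173-fold higher), and RET was the other line with an appreciable level (25.6 CPM). The glycine receptor subunit Glrb, at 265 ± 5.29 CPM in B16F10 luc2, was at 0.368, 0.0408, 0.137, 0.0464 and 0.17 CPM in HCmel12, while D4M had 4.53 CPM. The teneurin Tenm3, a cell surface protein of neurons, was lower in B16F10 luc2, with 0 CPM in B16F10 luc2 and 43.4, 41.1, 52.6, 34.7 and 41.4 CPM in HCmel12 (at least 345-fold lower).

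On the side of HCmel12, Sox12, a transcription factor of the SoxC group, was at 86.2, 84.6, 71.2, 87.8 and 81.7 CPM and at 0 in every B16F10 luc2 library, at least 665-fold lower in the latter. Dact2, a modulator of Wnt and TGF-beta signalling, was at 56.8 ± 6.23 CPM and likewise at 0 in B16F10 luc2 (at least 459-fold lower). Serpine2, a secreted inhibitor of thrombin and plasminogen activators, was at 0.137, 0.0411, 0.0412, 0.0892 and 0.179 CPM in B16F10 luc2. HCmel12 had 304, 334, 373, 245 and 295 CPM (log2 fold change -11.48, SE 0.86, adjusted p = 5.3e-12). Leading genes were chosen among genes without overlap between the lines, so that the separation of the values in them was set by that choice. The lines differed in Serpine2 by more than 3 orders of magnitude.

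Runx3, a RUNT-domain transcription factor, was at 48.8 ± 4.79 CPM in HCmel12 and above 0 in 1 B16F10 luc2 library. Capn6, a calpain without protease activity, was at 76.2 ± 26.9 CPM in HCmel12, and Cyp4b1, a cytochrome P450, at 133 ± 46.1 CPM. Both were at or below 2 counts in every B16F10 luc2 library and widely spread in HCmel12. Tagln2, an actin-binding protein, was at 259.6, 371, 407, 189 and 327 CPM in HCmel12 and between 0.0394 and 0.0821 CPM in B16F10 luc2, a ratio of 6400.4-fold, with a counting interval of 2942 to 17431, in that direction. All 3 other lines expressed it (29.4 to 526 CPM). Hist1h2ap, Pcdhgc3 and Lgi4 also led on this side, but between 44.6% and 93.4% of their 31-base sequences occur in other genes, so that their counts are uncertain.

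Genes altered in the lines by their origin differed strongly in part. Hgf, which encodes hepatocyte growth factor and is the transgene of the HCmel12 strain, was at 0 in every B16F10 luc2 library and at 85.6, 98.5, 103, 116 and 79.2 CPM in HCmel12, at least 779-fold lower in B16F10 luc2. The endogenous gene lies on chromosome 5 from 16553495 to 16620152. The counts do not separate a transgene from the endogenous gene. Its receptor gene Met was abundant in both lines, at 1804, 1795, 1594, 1687 and 1681 CPM in B16F10 luc2 and 1114, 966, 993, 1336 and 1053 CPM in HCmel12. Every B16F10 luc2 value was above every HCmel12 value for Met (log2 fold change 0.68, SE 0.14, adjusted p = 1.7e-04), while WT31, RET and D4M had 286, 101 and 109 CPM. Cdk4, in which HCmel12 carries a point mutation that a count cannot show, was at 619 ± 14.2 against 601 ± 9.36 CPM, and the values of the lines overlapped (log2 fold change 0.07, SE 0.04, adjusted p = 0.2, 95% interval -0.03 to 0.16 from the spread between cultures).

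Cdkn2a was at 0 in all 5 B16F10 luc2 libraries and at 185, 210.3, 189, 223 and 224 CPM in HCmel12, at least 1667-fold lower in B16F10 luc2. It lies on chromosome 4 from 89274471 to 89294653. Its neighbour Cdkn2b, which encodes the CDK inhibitor p15, was at 9.24, 10.7, 11.5, 10.2 and 16.3 CPM in HCmel12 and above 0 in a single B16F10 luc2 library (0.0412 CPM). For both genes the lines were thus separated completely. Mtap, the next gene of the locus and chosen after its values were seen, was expressed in B16F10 luc2 at 387, 445, 431, 430.3 and 422 CPM and in HCmel12 at 272, 273, 270.0, 181 and 256 CPM (log2 fold change 0.79, SE 0.08, adjusted p = 3.0e-09). RET had no count of Cdkn2a or Cdkn2b. WT31, made on an INK4a-deficient background, had 2.97 CPM of Cdkn2a and 44.1 CPM of Cdkn2b.

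Nras and Braf, genes of the RAS-ERK pathway, differed little. Nras (109 ± 4.13 against 149.7 ± 10.8 CPM, log2 fold change -0.44, SE 0.06, adjusted p = 2.7e-07) and Braf (53 ± 4.45 against 71.3 ± 4.32 CPM, log2 fold change -0.41, SE 0.07, adjusted p = 4.3e-06) were lower in B16F10 luc2 by less than 2-fold and without overlap. For the tumour suppressor gene Trp53 the values of the lines overlapped (log2 fold change -0.22, SE 0.07, adjusted p = 0.0069). Trp53 was at 187 CPM in HCmel12 replicate 4 and at 238 to 252 CPM in the other HCmel12 libraries. Without that library it still passed the test (log2 fold change -0.30, adjusted p = 4.5e-05). On TPM the call was lost (adjusted p = 0.051 to 0.11).

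**Figure D2:**
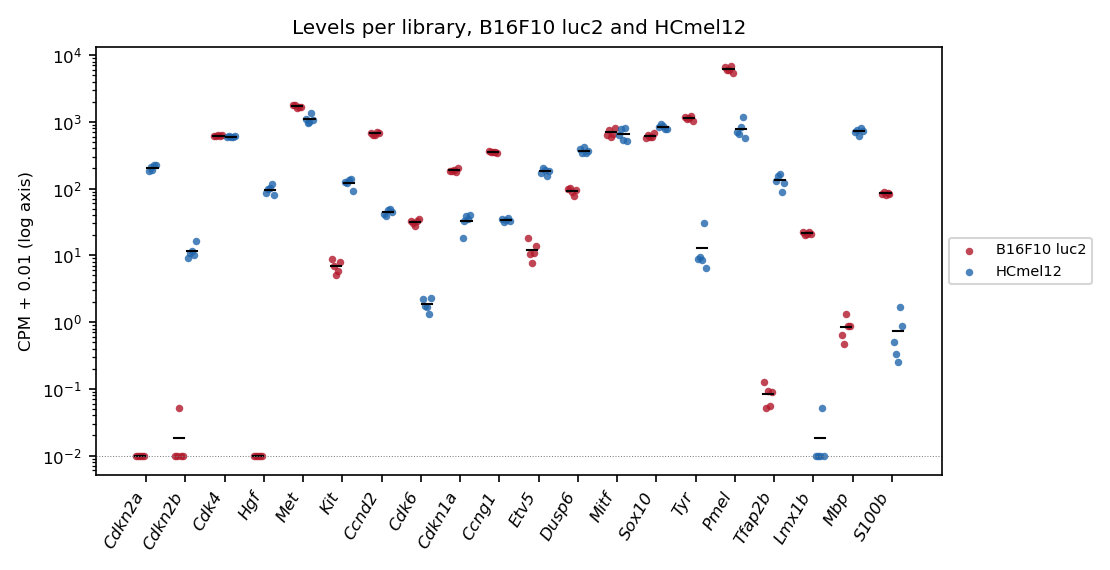
Levels of 20 genes in the single libraries as CPM + 0.01 on a log axis, with 5 points and a bar at the mean for each line. Points on the dotted line are libraries without a count. Cdkn2a and Hgf lie on the dotted line in B16F10 luc2, Cdk4 and Mitf overlap between the lines, and Tyr, Pmel, S100b and Lmx1b lie above HCmel12 in every B16F10 luc2 library.

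To describe the difference by function, 36 gene lists with 1497 tested genes between them were used. The share of members called at 2-fold is to be read against 12.2% and 16% of all tested genes in the higher and the lower direction. Members named beyond the 4 with the largest change in a direction were chosen after their values were seen.

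Pigment genes were in part higher in B16F10 luc2. Of 40 tested genes for melanin synthesis and melanosomes, 14 were at least 2-fold higher in B16F10 luc2 and 2 lower, with a median log2 fold change of 0.72. Without HCmel12 replicate 4 the counts were 16 and 2. Tyr encodes tyrosinase, the enzyme of the first step of melanin synthesis. It was at 1183, 1106, 1141, 1225 and 1017 CPM in B16F10 luc2. HCmel12 had 8.76, 9.36, 8.36, 30.7 and 6.41 CPM (log2 fold change 6.76, SE 0.23, adjusted p = 7.8e-19). HCmel12 replicate 4 was more than 3 times as high as the other libraries of its line, and all HCmel12 values were far below those of B16F10 luc2. The 250 bases before the start of Tyr in the RefSeq annotation (GRCm38.p6, chr7:87493513-87493762, minus strand) are shown because they carry the core of the M-box, the Mitf-binding element of pigment genes. It was searched as TCATGTG on both strands and is given here in capitals:

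Tyr: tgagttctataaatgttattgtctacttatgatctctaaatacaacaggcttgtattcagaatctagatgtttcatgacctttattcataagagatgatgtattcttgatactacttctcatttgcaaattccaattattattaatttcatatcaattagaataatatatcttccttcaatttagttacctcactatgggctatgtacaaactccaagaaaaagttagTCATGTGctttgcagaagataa

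The first base of the core lies 22 bases before the start. The same letters were present in the 250 bases before the start (all annotated starts of a gene counted) of 22.6% of the 31 genes of the pigment list with a listed promoter and of 2.58% of the 10342 tested protein-coding genes with a promoter. A match describes the letters only.

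Pmel, whose product forms the fibrils on which melanin is laid down, was at 6601, 6013, 5984, 6749 and 5319 CPM in B16F10 luc2. HCmel12 had 706, 664, 827, 1182 and 579.8 CPM (log2 fold change 3.02, SE 0.20, adjusted p = 4.0e-13). Mlana, which encodes the melanosome protein Melan-A, was at 1134 ± 129 against 145 ± 25.9 CPM (log2 fold change 3.00, SE 0.15, adjusted p = 1.8e-15). For both genes no HCmel12 value came within 4-fold of the lowest B16F10 luc2 value. Among transporters and receptors of the melanosome, Gpr143, Mfsd12 and Slc45a2 were higher as well (log2 fold changes 2.97, 2.71 and 1.74). Higher too was Slc7a11, the cystine transporter (14.8 ± 3.99 against 3.91 ± 3.43 CPM, log2 fold change 2.27, SE 0.47, adjusted p = 1.2e-04). The enzymes Tyrp1 (13980.4 ± 284 against 8485 ± 910.1 CPM, log2 fold change 0.75, SE 0.22, adjusted p = 0.0044) and Dct (5301 ± 153 against 3057 ± 1172 CPM, log2 fold change 0.88, SE 0.19, adjusted p = 2.0e-04) were below the 2-fold limit. The quasi-likelihood test of edgeR did not call them (log2 fold changes 0.74 and 0.82, adjusted p = 0.23 and 0.075). Tyrp1 also lost the call on TPM with a pseudocount of 0.1 (log2 fold change 0.77, adjusted p = 0.17). Dct was at 5147 CPM in HCmel12 replicate 4, which reached the lowest B16F10 luc2 library, and at 2406 to 2652 CPM in the other HCmel12 libraries. Its log2 fold change without replicate 4 was 1.08 (adjusted p = 3.1e-07). In TPM, which allow levels of different genes to be compared, Tyrp1 and Dct were at 9721 and 4245 in B16F10 luc2, Pmel and Mlana at 4429 and 2265, and Tyr at 392. HCmel12 had 5727, 2301, 549, 277 and 4.44 TPM of these genes, so that Tyr ranked last of the 5 genes in both lines and had the largest fold change. Rab7b, an endosomal RAB protein (0.27 ± 0.168 against 23.6 ± 6.71 CPM, log2 fold change -6.53, SE 0.51, adjusted p = 1.6e-11), and Rab29 were the members at least 2-fold lower in B16F10 luc2. Oca2, a melanosomal transporter, did not pass the test (7.53 ± 0.832 against 9.69 ± 3.14 CPM, log2 fold change -0.29, SE 0.20, adjusted p = 0.2).

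The transcription factors Mitf, Sox10 and Pax3 differed by less than 2-fold. Mitf was at 645, 766, 592, 664 and 798 CPM in B16F10 luc2. HCmel12 had 643, 791, 537, 796 and 520.0 CPM (log2 fold change 0.11, SE 0.13, adjusted p = 0.43), and the ranges of the lines overlapped. Sox10 was lower in B16F10 luc2 by less than 2-fold (613 ± 37.6 against 840.4 ± 60.7 CPM, log2 fold change -0.43, SE 0.11, adjusted p = 0.0012). This call was lost in DESeq2 (log2 fold change -0.46, adjusted p = 0.43) and on TPM with a pseudocount of 0.1 (-0.40, adjusted p = 0.091). Pax3 had a log2 fold change of -0.31. Of the 27 tested factors and receptors of the melanocyte list, 4 were at least 2-fold higher and 9 lower (median -0.31). Tfap2b, an AP-2 factor, was at 0.118, 0.0411, 0.0825, 0.0457 and 0.0787 CPM in B16F10 luc2 and 129.7, 154, 165, 89.9 and 122 CPM in HCmel12, a ratio of 1793-fold, with a counting interval of 948 to 3898, in that direction. Of the other lines, D4M had 238 CPM. Foxd3, a factor of premigratory neural crest, was at 0 in B16F10 luc2 and at 13.9 ± 3.1 CPM in HCmel12 (at least 112-fold lower). Irf4, which cooperates with Mitf at Tyr, was at 6.22 ± 4.17 CPM in HCmel12 and at no more than 0.0821 CPM in B16F10 luc2, a ratio of 192-fold, with a counting interval of 75.1 to 706, in that direction. HCmel12 replicate 4 was its highest library (13.1 CPM). Lmx1b, a LIM homeobox factor, had the opposite pattern, with 22.3, 20.5, 20.8, 22.1 and 21.1 CPM in B16F10 luc2 and a single HCmel12 library above 0. Among the receptors, Mc1r, the melanocortin receptor of the pigment cell, was higher in B16F10 luc2 (253 ± 17.3 against 72.8 ± 13 CPM, log2 fold change 1.83, SE 0.16, adjusted p = 1.3e-10), whereas Kit, the receptor of stem cell factor, was lower. Kit was at 8.75, 6.95, 5.07, 5.75 and 7.99 CPM in B16F10 luc2 and 124, 119.6, 134, 141 and 91.5 CPM in HCmel12 (log2 fold change -4.12, SE 0.19, adjusted p = 2.6e-16). The endothelin receptor Ednrb, at 1025 CPM in WT31, was at 0.0967 ± 0.116 against 0.191 ± 0.135 CPM and did not pass the test (log2 fold change -1.39, SE 0.75, adjusted p = 0.1). Ednrb did pass without B16F10 luc2 replicate 1 (adjusted p = 0.049) or replicate 5 (0.041). It also passed with the replicate number as a block over all 25 libraries (log2 fold change -1.36, adjusted p = 0.021).

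Genes of the neural crest and of Schwann cells were often lower in B16F10 luc2, with 17 of 34 tested members at least 2-fold lower, 2 higher and a median log2 fold change of -1.20 (15 and 2 without HCmel12 replicate 4). Mbp, which encodes myelin basic protein, was at 0.631, 0.452, 1.32, 0.863 and 0.866 CPM in B16F10 luc2. HCmel12 had 705, 742, 617, 821 and 726 CPM (log2 fold change -9.79, SE 0.42, adjusted p = 7.8e-17). WT31 and D4M had 0.716 and 0.816 CPM of Mbp and RET 1532 CPM, so that HCmel12 and RET stood against the other 3 lines. The POU factors Pou3f1 (1.53 ± 0.127 against 128 ± 22.9 CPM, log2 fold change -6.33, SE 0.22, adjusted p = 1.1e-18) and Pou3f2 (0 against 7.96 ± 1.8 CPM, at least 64.4-fold lower) were in the same direction. So were the low-affinity neurotrophin receptor Ngfr (3.35 ± 1.2 against 21.8 ± 7.46 CPM, log2 fold change -2.68, SE 0.51, adjusted p = 4.2e-05) and Erbb3, the neuregulin receptor (28.3 ± 4.94 against 157 ± 20.9 CPM, log2 fold change -2.45, SE 0.11, adjusted p = 1.1e-16). One of the 2 higher members was S100b, a calcium-binding protein of glia and melanocytes, at 83.5, 88.8, 81.4, 84.4 and 84.2 CPM in B16F10 luc2. HCmel12 had 0.491, 0.327, 0.245, 1.65 and 0.868 CPM (log2 fold change 7.19, SE 0.36, adjusted p = 2.0e-15). The other was Sox9, a factor of the early neural crest (4.58 ± 1.46 against 0.543 ± 0.443 CPM, log2 fold change 3.43, SE 0.47, adjusted p = 3.3e-07). The lines were separated completely in both genes.

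Receptor tyrosine kinases and their ligands were at least 2-fold lower in B16F10 luc2 in 23 of 51 tested members and at least 2-fold higher in 5, with a median log2 fold change of -0.87. Among the receptors, Kdr, the main VEGF receptor, was at 0, 0.164, 0.0412, 0.0411 and 0.118 CPM in B16F10 luc2. HCmel12 had 31, 35, 39.1, 25.8 and 26.4 CPM (log2 fold change -8.74, SE 0.57, adjusted p = 3.5e-13). Fgfr1, a receptor of fibroblast growth factors, was at 0.218 ± 0.0754 against 7.21 ± 0.872 CPM (log2 fold change -4.95, SE 0.34, adjusted p = 7.8e-13). Kit, Erbb3, Fgfr2, Mertk and Tyro3 (log2 fold changes -4.04, -3.12 and -2.41) belonged to the same group. Pdgfrb, the PDGF receptor beta, was the receptor with the largest opposite difference, at 6.11, 6.91, 8.0, 7.27 and 5.94 CPM in B16F10 luc2. HCmel12 had 0, 0, 0, 0.124 and 0 CPM (log2 fold change 7.84, SE 0.80, adjusted p = 2.6e-09). Ligands went both ways. Tgfa (0.0559 ± 0.0596 against 3.53 ± 0.264 CPM, log2 fold change -5.84, SE 0.57, adjusted p = 1.1e-09), Pdgfc (0 against 2.47 ± 0.898 CPM) and Gdnf (0 against 1.87 ± 0.619 CPM) were lower in B16F10 luc2 beside Hgf. Pdgfb (3.56 ± 1.03 against 0.197 ± 0.098 CPM, log2 fold change 4.20, SE 0.75, adjusted p = 2.0e-05) and Nrg2 (4.07 ± 0.525 against 0.0982 ± 0.0683 CPM, log2 fold change 5.30, SE 0.46, adjusted p = 1.0e-10) were higher. Egfr and Pdgfra did not pass the test (log2 fold changes 0.32 and 0.18).

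Transcripts that follow ERK activity were lower in B16F10 luc2 in part. Of 57 tested members of the ERK list, 16 were at least 2-fold lower and 8 higher (median -0.19, or -0.36 without HCmel12 replicate 4). Etv5, an ETS factor downstream of ERK, was at 18.1, 10.3, 7.63, 11 and 13.7 CPM in B16F10 luc2 and 172, 203, 188, 154 and 183 CPM in HCmel12 (log2 fold change -3.91, SE 0.18, adjusted p = 3.4e-16). Dusp6, the phosphatase that acts on ERK as feedback, was at 97.7, 101, 87.7, 78.1 and 94.4 CPM in B16F10 luc2. HCmel12 had 397, 335, 414, 337 and 369.9 CPM (log2 fold change -1.99, SE 0.17, adjusted p = 4.5e-11). Neither gene had overlapping values, and in Etv5 30.3% of the 31-base sequences are shared with another gene. Etv4 (-2.93), Spry4 (-2.91), Egr1 (-2.26), Egr3 (-5.71) and Myc (-1.19) had log2 fold changes in the same direction. The RAS activator Rasgrp3 (89.1 ± 9.54 against 4.39 ± 1.05 CPM, log2 fold change 4.39, SE 0.16, adjusted p = 3.3e-18), the phosphatase Dusp9 (5.3 ± 0.934 against 0.188 ± 0.0614 CPM, log2 fold change 4.72, SE 0.31, adjusted p = 5.1e-13) and the cytokine Il11 (log2 fold change 2.70) were higher in B16F10 luc2. Ccnd1, a target of the pathway, did not pass the test (359 ± 25.3 against 431 ± 131 CPM, log2 fold change -0.18, SE 0.15, adjusted p = 0.27) unless HCmel12 replicate 4 was left out (-0.36, adjusted p = 0.0093).

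Few cell cycle genes differed by 2-fold. Of 65 tested members, 7 were at least 2-fold higher in B16F10 luc2 and 4 lower, and the median was 0.27. The D-type cyclin Ccnd2 was at 685, 639, 636, 711 and 669 CPM in B16F10 luc2. HCmel12 had 41.8, 39.2, 47.6, 49 and 43.8 CPM (log2 fold change 3.94, SE 0.11, adjusted p = 2.0e-20). Its partner kinase Cdk6 was at 32.8, 30.7, 27.9, 32.7 and 34.7 CPM in B16F10 luc2. HCmel12 had 2.17, 1.72, 1.67, 1.32 and 2.25 CPM (log2 fold change 4.15, SE 0.23, adjusted p = 2.0e-14). Both were above HCmel12 in every library, by 15.4-fold and 17.8-fold in the fit. The proliferation markers Mki67 and Top2a did not pass the test (log2 fold changes 0.07 and 0.12). The largest decrease after the Cdkn2 genes was that of Mcm7, a subunit of the replicative helicase (219.9 ± 7.28 against 788 ± 100.1 CPM, log2 fold change -1.81, SE 0.07, adjusted p = 3.5e-17).

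Genes of the p53 pathway were at least 2-fold higher in B16F10 luc2 in 13 of 41 tested members and at least 2-fold lower in 5, with a median of 0.65. Cdkn1a, the p53 target that encodes the CDK inhibitor p21, was at 186, 180.2, 189.8, 177 and 206 CPM in B16F10 luc2. HCmel12 had 17.9, 32.3, 38.2, 34.9 and 40.6 CPM (log2 fold change 2.59, SE 0.16, adjusted p = 2.1e-13). Ccng1, another direct target, was at 362, 348, 350.4, 353 and 345 CPM in B16F10 luc2 and 34.4, 31.8, 34, 35.9 and 32.3 CPM in HCmel12 (log2 fold change 3.41, SE 0.11, adjusted p = 2.1e-19). The values were separated in both genes. Trp53inp1 (32.8 ± 5.56 against 6.53 ± 5.66 CPM, log2 fold change 2.71, SE 0.28, adjusted p = 3.9e-09), Zmat3 (1.22), Polk (1.49) and Mdm2 (0.65, called but below 2-fold) had the same direction. The pro-apoptotic Pmaip1 (0 against 8.18 ± 0.681 CPM, at least 66.1-fold lower), Gdf15 (0.162 ± 0.0853 against 25 ± 12.9 CPM, log2 fold change -7.11, SE 0.92, adjusted p = 1.6e-07) and Plk2 (11.1 ± 2.22 against 171 ± 21.9 CPM, log2 fold change -3.93, SE 0.13, adjusted p = 3.8e-19) had the opposite one.

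In the PI3K pathway (39 tested members, 5 at least 2-fold higher, 5 lower, median -0.29, or -0.18 without HCmel12 replicate 4) the RAC activator Prex1 was at 0.0788, 0.206, 0.0412, 0.0411 and 0.0394 CPM in B16F10 luc2. HCmel12 had 75.7, 67.1, 60.8, 60.7 and 69.5 CPM (log2 fold change -9.56, SE 0.34, adjusted p = 1.6e-18), without any overlap. Its relative Prex2 was also lower (13.5 ± 1.48 against 76.1 ± 13.6 CPM, log2 fold change -2.46, SE 0.14, adjusted p = 3.2e-14). The kinase gene Akt1 (1174 ± 24 against 504 ± 50.9 CPM, log2 fold change 1.25, SE 0.06, adjusted p = 1.4e-16) and Rictor (103 ± 12 against 33.6 ± 2.3 CPM, log2 fold change 1.63, SE 0.09, adjusted p = 3.1e-14) were higher.

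**Figure D3:**
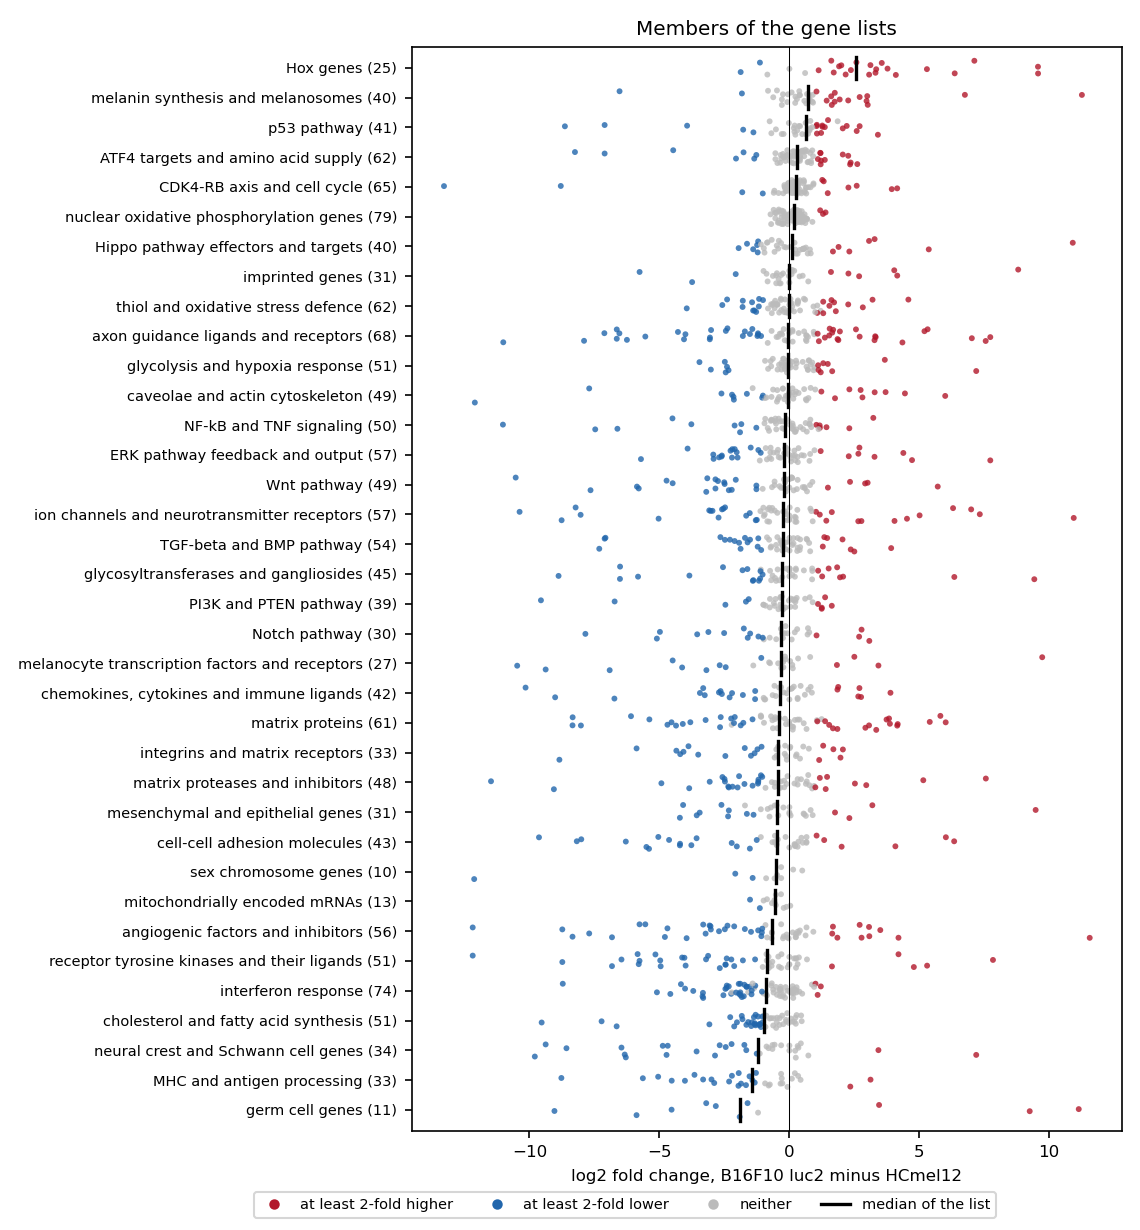
Log2 fold changes, B16F10 luc2 minus HCmel12, of the tested members of the 36 gene lists (number tested in brackets), ordered by the median of the list. Red and blue points were called and at least 2-fold higher or lower, grey points were neither, and a gene can be in several lists. Hox genes (median 2.58) and pigment genes (0.72) lie at the upper end, and cholesterol (-0.99), neural crest (-1.20), antigen processing (-1.42) and germ cell genes (-1.91) at the lower end. Only 11 germ cell genes passed the count filter, and their median describes these alone.

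Many genes of antigen presentation were lower in B16F10 luc2. Class I molecules display peptides of the cell to cytotoxic T cells, and they consist of a heavy chain with beta-2 microglobulin. The TAP transporter carries peptides to them, the immunoproteasome is one source of such peptides, and Nlrc5 activates transcription of class I genes. Of 33 tested members of the list, 19 were at least 2-fold lower in B16F10 luc2 and 2 higher (median -1.42, or -1.23 without HCmel12 replicate 4). B2m was at 205, 211, 237, 237 and 179 CPM in B16F10 luc2. HCmel12 had 550.4, 597, 585, 777 and 639 CPM (log2 fold change -1.53, SE 0.10, adjusted p = 6.9e-13). The heavy chain H2-K1 was at 2.17, 1.6, 2.93, 2.61 and 1.85 CPM in B16F10 luc2. HCmel12 had 15.7, 17.6, 14.9, 51.3 and 25.8 CPM (log2 fold change -3.32, SE 0.44, adjusted p = 2.4e-07). H2-D1, another heavy chain, was at 34.7 ± 3.33 against 91.3 ± 27.9 CPM (log2 fold change -1.33, SE 0.15, adjusted p = 2.0e-08). All HCmel12 values were above all B16F10 luc2 values, and replicate 4 was the highest HCmel12 library in each of these genes. Between 22.8% and 26.9% of the 31-base sequences of the heavy chains are shared. Without replicate 4 the log2 fold changes were -1.46, -3.02 and -1.18. Nlrc5 was at 0.118, 0.0411, 0.0825, 0.0821 and 0.236 CPM in B16F10 luc2. HCmel12 had 6.18, 4.86, 5.83, 7.0 and 6.28 CPM (log2 fold change -5.64, SE 0.32, adjusted p = 3.0e-14). The immunoproteasome subunit Psmb8 was above 0 in 2 B16F10 luc2 libraries and at 0.776 to 2.1 CPM in HCmel12. Tap1, a chain of the TAP transporter, did not pass the test (0.987 ± 0.265 against 1.39 ± 1.04 CPM, log2 fold change -0.27, SE 0.34, adjusted p = 0.51), and its sign turned without replicate 4 (0.09, adjusted p = 0.83). Of the ligands of the NK cell receptor NKG2D, Raet1e was found in HCmel12 (11.3 ± 1.54 CPM) and Raet1d was higher in B16F10 luc2 (18.8 ± 1.16 against 3.81 ± 0.901 CPM). Of their 31-base sequences, 55.5% and 67.1% are shared, mainly between them.

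Many members of the interferon list were lower as well, with 31 of 74 tested members at least 2-fold lower, 3 higher and a median of -0.88. Without HCmel12 replicate 4 the counts were 25 and 2 and the median -0.67. Ifitm3, an antiviral membrane protein, was at 9.3, 9.62, 12.1, 11.7 and 8.54 CPM in B16F10 luc2 and 102, 104, 73.3, 130.3 and 113 CPM in HCmel12 (log2 fold change -3.31, SE 0.25, adjusted p = 6.0e-12). Trim25, a ubiquitin ligase of the RIG-I pathway (0.935 ± 0.279 against 22.7 ± 5.46 CPM, log2 fold change -4.58, SE 0.36, adjusted p = 1.2e-11), and the GTPase Gbp7 (0.21 ± 0.10 against 4.14 ± 2.05 CPM, log2 fold change -4.17, SE 0.48, adjusted p = 2.3e-08) belonged to the same group. Isg15, a ubiquitin-like protein, and Irf7, an interferon regulatory factor, rested in part on 1 library. Isg15 was at 7.78 CPM in HCmel12 replicate 4 and 1.55 to 2.07 CPM in the others against 0.67 to 0.949 CPM in B16F10 luc2, and its adjusted p rose from 0.022 to 0.083 without that library. Irf7 was at 6.05 CPM there and 0.571 to 0.941 CPM in the others, with an adjusted p of 0.044 without it. Ifit3, an antiviral protein, did not pass the test (1.58 ± 0.343 against 2.86 ± 2.02 CPM, log2 fold change -0.62, SE 0.51, adjusted p = 0.28) but did in edgeR and DESeq2 (adjusted p = 0.048 and 0.033), and the receptor chain Ifnar1 differed little (log2 fold change 0.14, a call that most alternatives did not keep).

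Among secreted immune factors and surface ligands, 14 of 42 were at least 2-fold lower and 6 higher (median -0.36). Cxcl10, a chemokine for T cells, was at 3.23, 3.74, 4.0, 3.94 and 6.97 CPM in B16F10 luc2. HCmel12 had 46.3, 47.2, 51.1, 23 and 46.3 CPM (log2 fold change -3.25, SE 0.30, adjusted p = 4.5e-10). In contrast to the class I genes, HCmel12 replicate 4 was its lowest library. Cd274, which encodes PD-L1, was at 2.85, 2.43, 3.22, 2.63 and 2.06 CPM in B16F10 luc2. HCmel12 had 29.5, 24, 19.5, 56.6 and 25.8 CPM (log2 fold change -3.44, SE 0.31, adjusted p = 1.7e-10, or -3.20 without replicate 4). Cd200, a ligand that restrains myeloid cells, was at 29.4 ± 5.29 CPM in HCmel12 and above 0 in a single B16F10 luc2 library, a ratio of 3638-fold, with a counting interval of 653 to 143684, in that direction. Cxcl11, a chemokine of the same receptor as Cxcl10, was at 20.6 ± 2.05 CPM against at most 0.0412 CPM. On the other side, Lgals3, which encodes galectin-3 (673 ± 45.8 against 105 ± 32.6 CPM, log2 fold change 2.76, SE 0.16, adjusted p = 4.9e-14), and the cytokine Il15 (log2 fold change 3.89) were higher in B16F10 luc2. Members of NF-kB and TNF signalling were at least 2-fold higher in 6 and lower in 9 of 50 tested cases (median -0.15, or -0.10 without HCmel12 replicate 4). The death receptor gene Tnfrsf21 was at 53.7, 45.2, 41.8, 37.6 and 36.9 CPM in HCmel12 and at 0 in B16F10 luc2 (at least 348-fold lower). Ripk3, a kinase of necroptosis, was at 7.94 ± 1.5 CPM in HCmel12 with B16F10 luc2 below the floor of 3 counts. The NF-kB subunit gene Rela differed by less than 2-fold (log2 fold change -0.71).

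The 250 bases before the starts of B2m (chr2:122147437-122147686, plus strand), Bst2 (chr8:71537473-71537722, minus strand) and Cxcl10 (chr5:92348890-92349139, minus strand) are shown because these 3 genes were lower in B16F10 luc2 and each holds an interferon-stimulated response element. It was searched as GAAA, any 2 bases and GAAA again on both strands and is printed in capitals, with 2 overlapping matches in Bst2 (RefSeq, GRCm38.p6):

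B2m: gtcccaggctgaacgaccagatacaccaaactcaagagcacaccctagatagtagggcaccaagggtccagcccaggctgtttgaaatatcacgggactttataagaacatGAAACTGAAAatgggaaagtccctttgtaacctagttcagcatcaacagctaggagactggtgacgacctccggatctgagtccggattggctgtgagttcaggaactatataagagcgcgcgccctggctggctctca

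Bst2: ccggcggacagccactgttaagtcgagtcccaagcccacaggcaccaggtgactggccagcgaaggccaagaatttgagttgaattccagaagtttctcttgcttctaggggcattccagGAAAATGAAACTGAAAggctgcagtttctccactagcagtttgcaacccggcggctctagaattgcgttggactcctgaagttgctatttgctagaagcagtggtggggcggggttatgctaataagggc

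Cxcl10: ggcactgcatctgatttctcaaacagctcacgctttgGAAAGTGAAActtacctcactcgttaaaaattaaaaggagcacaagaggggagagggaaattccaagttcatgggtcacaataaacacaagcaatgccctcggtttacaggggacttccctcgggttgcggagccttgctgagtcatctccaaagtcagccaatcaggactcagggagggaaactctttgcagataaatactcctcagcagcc

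Bst2, which encodes tetherin, an antiviral protein of the cell surface, was at 15.2, 13.8, 18.3, 15.7 and 11.7 CPM in B16F10 luc2. HCmel12 had 44.6, 52.8, 49.1, 71.7 and 63.2 CPM (log2 fold change -1.89, SE 0.21, adjusted p = 7.3e-09), again without overlap. The element was present before the start of 44.6% of the 56 genes of the interferon list with a listed promoter and of 18.5% of the 27 of the antigen presentation list, and of 3.67% of the 10342 tested protein-coding genes with one. Of the protein-coding genes with a listed promoter and at least 2-fold lower in B16F10 luc2, 5.64% held it, and of those at least 2-fold higher, 2.41%.

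Extracellular matrix genes differed in both directions. Of 61 tested matrix proteins, 16 were at least 2-fold higher and 19 lower (median -0.39, or -0.17 when genes at 0 in all libraries of a line were set to the smallest difference that a floor of 3 counts allows). Fn1, which encodes fibronectin, was at 61.5, 98.8, 83.1, 69.99 and 90.6 CPM in B16F10 luc2. HCmel12 had 1095, 1168, 1815, 1402 and 1578 CPM (log2 fold change -4.10, SE 0.22, adjusted p = 8.9e-15). Of basement membrane genes, the laminin chain Lama5 was lower at 4.32 ± 0.756 against 62.1 ± 12.9 CPM (log2 fold change -3.81, SE 0.23, adjusted p = 5.9e-14), as were Col4a1 and Col4a2 (log2 fold changes -2.64 and -2.67). Nid1 (0.55), Col15a1 (1.53) and Col4a4 were higher. The linker protein gene Nid2 was at 10.4 ± 1.69 CPM in HCmel12 and above 0 in 2 B16F10 luc2 libraries, a ratio of 643-fold, with a counting interval of 178 to 5312, in that direction. Fibrillar collagens were split between the lines, with Col11a1 and Col27a1 lower in B16F10 luc2 (log2 fold changes -4.36 and -1.87) and the chains of collagen I higher. Col1a2 was at 15.6, 17.1, 17.5, 18.4 and 15 CPM in B16F10 luc2 and 0.491, 0.286, 0.163, 0.165 and 0.207 CPM in HCmel12 (log2 fold change 6.02, SE 0.44, adjusted p = 3.9e-12), and Col1a1 had a log2 fold change of 4.15. The Col1a2 values of the lines did not overlap. Col4a4 (10.3 ± 1.3 against 0.279 ± 0.16 CPM, log2 fold change 5.40, SE 0.36, adjusted p = 7.1e-13), the elastin gene Eln (1.88 ± 0.497 CPM, with 2 of 5 HCmel12 libraries above 0) and Postn, which encodes periostin (6.54 ± 1.56 against 0.352 ± 0.105 CPM, log2 fold change 4.17, SE 1.00, adjusted p = 6.3e-04), were also higher in B16F10 luc2.

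Proteases and their inhibitors were at least 2-fold lower in 20 of 48 tested members and higher in 8 (median -0.45). The metalloproteases Adam12 (9.9 ± 1.63 against 305 ± 39.3 CPM, log2 fold change -4.92, SE 0.23, adjusted p = 3.0e-16) and Mmp2 (6.24 ± 0.54 against 53.1 ± 3.74 CPM, log2 fold change -3.06, SE 0.17, adjusted p = 1.1e-14) were lower in B16F10 luc2 beside Serpine2. Mmp16, a membrane-type metalloprotease, was at 17.1 ± 2.17 CPM in HCmel12 and above 0 in 2 B16F10 luc2 libraries. Hpse, the heparanase that cleaves heparan sulfate chains, was at 38.2, 36, 37.1, 43.6 and 27.9 CPM in B16F10 luc2. HCmel12 had 0.0818, 0.123, 0.0408, 1.65 and 0.165 CPM (log2 fold change 7.56, SE 0.61, adjusted p = 2.8e-11, or log2 fold change 8.33 without HCmel12 replicate 4). Timp1, an inhibitor of metalloproteases, was at 19.3, 19.4, 21, 19.099 and 19.2 CPM in B16F10 luc2. HCmel12 had 0.491, 0.735, 0.612, 0.288 and 0.702 CPM (log2 fold change 5.16, SE 0.28, adjusted p = 1.3e-14). Both were higher in B16F10 luc2 without overlap, and Mmp14 was nearly equal (log2 fold change -0.20, a call lost on TPM).

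Integrins differed by chain. Of 33 tested integrins and matrix receptors, 5 were at least 2-fold higher in B16F10 luc2 and 13 lower (median -0.43). The fibronectin receptor chain Itga5 was at 102, 109.9, 116, 112 and 103 CPM in B16F10 luc2. HCmel12 had 25.8, 31.6, 31.2, 24.1 and 28.8 CPM (log2 fold change 1.97, SE 0.08, adjusted p = 8.1e-18). Itgb3, the chain of the vitronectin receptor, was at 66.5, 64.5, 53, 64.9 and 56.6 CPM in B16F10 luc2. HCmel12 had 14.1, 15.3, 19.08, 11.9 and 14.5 CPM (log2 fold change 2.06, SE 0.13, adjusted p = 9.2e-14). Every B16F10 luc2 value was above every HCmel12 value in both, and Itga9 (1.30) and Itga4 (1.15) had the same direction. Of the collagen and laminin receptor chains, Itga1 (-3.51), Itga2 (-4.07), Itga3 (0.366 ± 0.143 against 5.38 ± 0.635 CPM, log2 fold change -3.88, SE 0.38, adjusted p = 8.7e-10), Itga6 (-1.23) and Itga7 (0.86 ± 0.201 against 16.2 ± 2.94 CPM, log2 fold change -4.20, SE 0.29, adjusted p = 1.5e-12) were lower and Itgb4 (1.70) was higher. Itga10 (0.25) and the common chain Itgb1 (-0.16) did not pass the test, although 7 alternatives called Itgb1. Of cell-cell adhesion molecules, 16 of 43 were at least 2-fold lower and 6 higher (median -0.49). Cdh13, a cadherin anchored by a lipid, was at 0.0394, 0.0822, 0.165, 0.123 and 0.157 CPM in B16F10 luc2 and 82.5, 94.6, 95.3, 139 and 94.6 CPM in HCmel12 (log2 fold change -9.63, SE 0.58, adjusted p = 6.4e-14). The gap junction gene Gja1 was at 63.8, 50.1, 42.4, 49.4 and 61.3 CPM in B16F10 luc2. HCmel12 had 0.654, 0.98, 0.817, 0.535 and 1.2 CPM (log2 fold change 6.02, SE 0.28, adjusted p = 4.3e-16). Neither gene had overlapping values. F11r, which encodes a junctional adhesion molecule, was lower (0.969 ± 0.443 against 37.4 ± 5.86 CPM, log2 fold change -5.40, SE 0.29, adjusted p = 7.6e-15), and the neural cadherin gene Cdh2 differed by less than 2-fold (-0.49).

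Epithelial and mesenchymal genes gave 4 of 31 at least 2-fold higher and 9 lower (median -0.49, or -0.18 at that smallest difference). Cdh1, the epithelial cadherin, was low in both lines (0.361 ± 0.166 against 7.39 ± 4.68 CPM, log2 fold change -4.21, SE 0.47, adjusted p = 1.3e-08). Jup, which encodes the junction protein plakoglobin, was at 2.06 ± 0.649 against 24.2 ± 3.98 CPM (log2 fold change -3.56, SE 0.24, adjusted p = 6.6e-13). The intermediate filament gene Vim was higher in B16F10 luc2 by less than 2-fold (log2 fold change 0.57). Zeb1 did not pass the test (-0.57). Its difference turned to 0.0092 without HCmel12 replicate 4, while DESeq2 called it (-1.27, adjusted p = 0.031). Zeb2 and Snai2 were called below 2-fold (-0.23 and -0.76), and Zeb2 lost the call on TPM. Of 49 genes of caveolae and the actin cytoskeleton, 9 were at least 2-fold higher and 9 lower (median -0.06, or -0.03 at that smallest difference). Cav2 was lower in B16F10 luc2 (87.4 ± 5.2 against 410.1 ± 36.6 CPM, log2 fold change -2.20, SE 0.08, adjusted p = 4.8e-18). Cav1, which encodes caveolin 1, was at 489 CPM in HCmel12 replicate 4, 283 to 299 CPM in the other HCmel12 libraries and 1.18 to 2.01 CPM in B16F10 luc2. Cavin2, another coat protein of caveolae, was higher (48.5 ± 3.19 against 5.18 ± 1.34 CPM, log2 fold change 3.28, SE 0.24, adjusted p = 3.2e-12). So were the myosin light chain kinase Mylk (105 ± 8.02 against 4.88 ± 0.476 CPM, log2 fold change 4.45, SE 0.12, adjusted p = 9.4e-21) and the focal adhesion gene Zyx (314 ± 48.3 against 45.6 ± 8.41 CPM, log2 fold change 2.81, SE 0.15, adjusted p = 5.1e-15), while the coat protein Cavin1 did not pass the test (0.12).

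Genes of angiogenesis, inhibitors and receptors included, were at least 2-fold lower in B16F10 luc2 in 25 of 56 tested members and higher in 10 (median -0.68). Vegfa, the main endothelial growth factor, did not pass the test (30.4 ± 4.22 against 38.2 ± 18.2 CPM, log2 fold change -0.22, SE 0.18, adjusted p = 0.29). It was at 70.2 CPM in HCmel12 replicate 4 and 26.7 to 34.7 CPM in the other HCmel12 libraries, and without that library the sign of its log2 fold change turned (0.02, adjusted p = 0.88). Among guidance factors, which direct axons and migrating cells, 21 of 68 were at least 2-fold higher and 24 lower (median -0.03, or -0.01 without HCmel12 replicate 4). Eph receptors went both ways. Several of the A class were higher, with 11.5 ± 1.55 against 1.28 ± 0.661 CPM for Epha2 (log2 fold change 3.28, SE 0.32, adjusted p = 9.8e-10) and 3.14 ± 0.678 against 0.0822 ± 0.0771 CPM for Epha1 (log2 fold change 5.32, SE 0.48, adjusted p = 1.8e-10). Epha4 was at 5.93 ± 0.625 CPM in B16F10 luc2 and above 0 in 1 HCmel12 library. Of the B class, Ephb3 was at 0 in B16F10 luc2 and at 2.92 ± 0.792 CPM in HCmel12 (at least 23.6-fold lower), Ephb2 and Ephb4 were lower (log2 fold changes -1.79 and -1.71) and Ephb6 was higher (4.35). Semaphorins and their receptors did so as well. Sema3g was at 0.158, 0.206, 0.247, 0.164 and 0.197 CPM in B16F10 luc2. HCmel12 had 49.1, 65.9, 58.7, 36.8 and 51.4 CPM (log2 fold change -7.90, SE 0.45, adjusted p = 2.2e-14). The semaphorin receptor gene Plxna4 was at 9.65 ± 0.623 CPM in B16F10 luc2 and below 3 counts in HCmel12, and Plxna2 was at 3.94 ± 0.791 CPM in HCmel12 and below 3 counts in B16F10 luc2. Each line thus had a plexin that the other lacked at this depth, and the receptor Nrp1, shared with VEGF, did not pass the test (-0.08).

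In the Wnt pathway (49 tested, 5 at least 2-fold higher, 18 lower, median -0.21) inhibitors and receptors were among the largest decreases. Nkd2, an inhibitor of Dishevelled, was at 52.6, 65.5, 65.9, 33.7 and 50.5 CPM in HCmel12 and no more than 0.0788 CPM in B16F10 luc2. Dkk3, a secreted protein of the Dickkopf family, was at 0.232 ± 0.192 against 35.1 ± 9.91 CPM (log2 fold change -7.65, SE 0.62, adjusted p = 2.4e-11, or log2 fold change -6.91 without B16F10 luc2 replicate 2). The transcription factor Lef1 (0.216 ± 0.201 against 4.13 ± 0.918 CPM, log2 fold change -4.49, SE 0.40, adjusted p = 1.9e-10) and the receptor Lgr5 (0.186 ± 0.0901 against 5.2 ± 0.851 CPM, log2 fold change -4.72, SE 0.38, adjusted p = 2.0e-11) were lower in B16F10 luc2. Axin2, a common feedback target, was higher (20.5 ± 5.83 against 7.46 ± 2.39 CPM, log2 fold change 1.49, SE 0.20, adjusted p = 3.2e-07). In the Notch pathway (30 tested, 4 at least 2-fold higher, or 2 without B16F10 luc2 replicate 4 or HCmel12 replicate 3, 11 lower, median -0.30) the ligand Jag1 was higher in B16F10 luc2 (16 ± 1.9 against 1.93 ± 0.32 CPM, log2 fold change 3.08, SE 0.28, adjusted p = 2.7e-10). The modifier Lfng (0.633 ± 0.332 against 7.39 ± 2.39 CPM, log2 fold change -3.55, SE 0.36, adjusted p = 2.1e-09), the ligand Jag2 (-1.60) and the target Hes1 (-1.75) were lower. In the TGF-beta and BMP pathway (54 tested, 7 at least 2-fold higher, 15 lower, median -0.24) the ligand Bmp4 was at 0 in B16F10 luc2 and at 3.35 ± 0.886 CPM in HCmel12, and Tgfb1 had a log2 fold change of -1.51. Id2, a target of BMP signalling, was higher in B16F10 luc2 (351 ± 194 against 55.6 ± 16.9 CPM, log2 fold change 2.5, SE 0.31, adjusted p = 6.4e-08). Its spread was wide, with 551, 409.9, 140.3, 150.4 and 501 CPM in the B16F10 luc2 libraries. Of 40 genes of the Hippo pathway, 7 were at least 2-fold higher and 6 lower (median 0.11, 0.06 without HCmel12 replicate 4 and 0 at the smallest difference). The cofactor Vgll3 was at 276, 352, 345, 355 and 315 CPM in B16F10 luc2. HCmel12 had 11.6, 10.3, 9.62, 3.42 and 8.43 CPM (log2 fold change 5.37, SE 0.33, adjusted p = 1.1e-13), far apart in every library. The YAP targets Ccn1 (1.68) and Ccn2 (15.8 ± 3.05 against 2.04 ± 0.865 CPM, log2 fold change 3.07, SE 0.63, adjusted p = 1.1e-04) were also higher, while Yap1 itself differed little (-0.20).

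Genes of cholesterol and fatty acid synthesis were at least 2-fold lower in B16F10 luc2 in 25 of 51 tested members and at least 2-fold higher in 0, with a median of -0.99 (23 and 0 without HCmel12 replicate 4). Scd1, which desaturates fatty acids, was at 65.8, 75.2, 92.6, 98.8 and 63.4 CPM in B16F10 luc2. HCmel12 had 586, 629, 517, 916 and 756 CPM (log2 fold change -3.08, SE 0.13, adjusted p = 1.1e-16). Hmgcs1, which makes HMG-CoA from acetyl units, was at 93.6, 73.7, 93.6, 93.2 and 79.4 CPM in B16F10 luc2. HCmel12 had 206, 283, 168, 229 and 207 CPM (log2 fold change -1.30, SE 0.13, adjusted p = 2.6e-09). Idi1 (-1.65), Mvd (-1.20), Fdft1 (-1.09) and the regulator Srebf1 (-1.36) had log2 fold changes in this direction. Acaca did not pass the test (-0.13) but did under 8 alternatives. The fatty acid carrier Fabp3 (0.112 ± 0.0586 against 90.7 ± 9.4 CPM, 50.1% of its 31-base sequences shared, mostly with a pseudogene) and the lipase Lpl (0.090 ± 0.0536 against 15.4 ± 2.9 CPM, log2 fold change -7.22, SE 0.47, adjusted p = 2.8e-13) had the largest differences. The 250 bases before the start of Hmgcs1 (RefSeq, GRCm38.p6, chr13:119690101-119690350, plus strand) are shown because they hold a sterol response element. It was searched as TCACNCCAC on both strands and is printed in capitals:

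Hmgcs1: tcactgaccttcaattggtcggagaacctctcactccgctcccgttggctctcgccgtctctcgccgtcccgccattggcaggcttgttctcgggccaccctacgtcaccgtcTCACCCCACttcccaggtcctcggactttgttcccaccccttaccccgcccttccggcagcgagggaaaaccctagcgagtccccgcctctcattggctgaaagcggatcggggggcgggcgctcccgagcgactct

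These letters were rare, being present before the start of 2.78% of the 36 genes of the list with a listed promoter, which is Hmgcs1 alone, and of 1.41% of the 10342 tested protein-coding genes with one.

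Genes that ATF4 induces when amino acids are short, or that supply amino acids, were at least 2-fold higher in 11 and lower in 7 of 62 tested members (median 0.30). Without HCmel12 replicate 4, 14 were higher (median 0.41). Atf4 itself was at 392, 330.0, 347, 365 and 287 CPM in B16F10 luc2. HCmel12 had 161, 178, 196, 274 and 186 CPM (log2 fold change 0.83, SE 0.12, adjusted p = 8.8e-07). Trib3, a pseudokinase induced by ATF4, was at 36.4, 26.9, 31.6, 32.8 and 24.6 CPM in B16F10 luc2 and 2.94, 2.08, 2.94, 66.7 and 6.69 CPM in HCmel12. The highest of the 10 values was that of HCmel12 replicate 4, and the other HCmel12 libraries lay below all B16F10 luc2 libraries. The difference passed the test (log2 fold change 2.34, SE 0.47, adjusted p = 9.7e-05), and without replicate 4 the log2 fold change was 3.20 (adjusted p = 7.8e-09). The same library was highest in its line for Chac1 (15.1 CPM against 1.47 to 1.88 CPM), Nupr1 (20.9 against 0.327 to 0.744 CPM), Ddit3 (70.4 against 13.6 to 22.9 CPM), Asns (356 against 153 to 161 CPM) and Slc1a4 (51 against 8.17 to 11.2 CPM). In the same order, B16F10 luc2 had 10.3 to 20.2, 4.69 to 7.19, 39.97 to 63.1, 162 to 251 and 21.7 to 36.9 CPM. The log2 fold change rose from 2.62 to 3.24 for Chac1 and from 2.36 to 3.42 for Nupr1 without that library. Asns did not pass the test with all libraries (adjusted p = 0.4) and did without replicate 4 (log2 fold change 0.41, adjusted p = 0.0089). In edgeR's quasi-likelihood test Trib3, Nupr1 and Slc1a4 lost the call, and the log2 fold changes were 0.93 for Trib3, 0.28 for Nupr1 and 1.94 for Chac1. DESeq2 gave 0.24 for Nupr1 and 1.91 for Chac1. The same 3 calls were lost with the replicate number as a block in a fit of the 2 lines alone. There, Trib3 had a log2 fold change of 1.46 (adjusted p = 0.082), Nupr1 of 0.90 (adjusted p = 0.41) and Slc1a4 of 0.85 (adjusted p = 0.068). Cbs, which makes cystathionine from homocysteine, was lower in B16F10 luc2 (0.259 ± 0.143 against 5.69 ± 0.632 CPM, log2 fold change -4.47, SE 0.29, adjusted p = 3.3e-13). Stc2, a secreted glycoprotein, was at 0 in B16F10 luc2 and at 4.54, 3.96, 6.12, 13.8 and 6.2 CPM in HCmel12. Since the medium of HCmel12 contained added glutamine, non-essential amino acids and a thiol, the medium cannot be told apart from the line for these genes and for those of thiol defence.

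**Figure D4:**
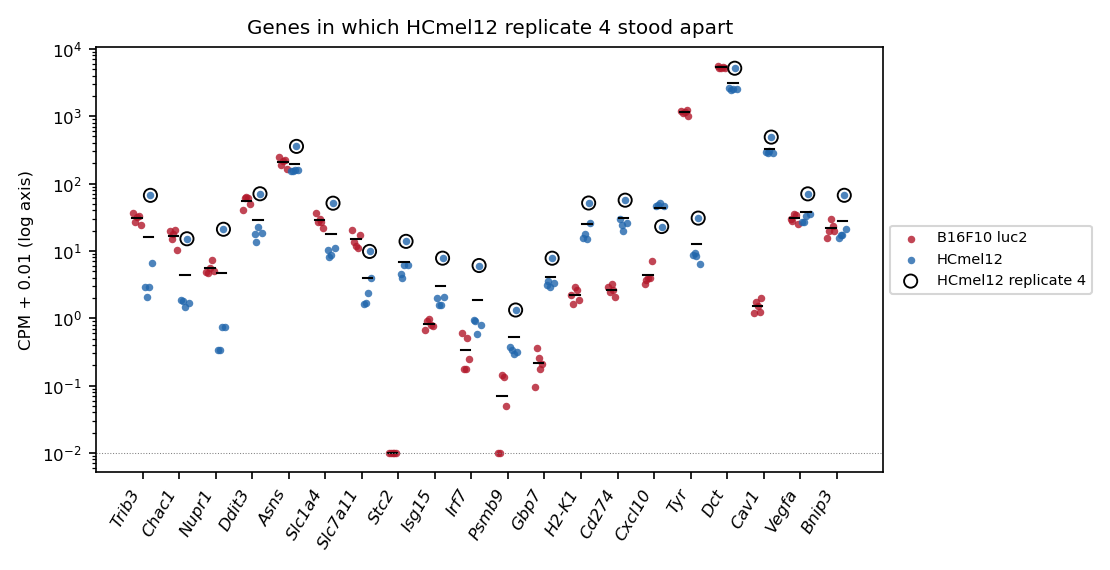
Levels of 20 genes, chosen after their values were seen, in the single libraries as CPM + 0.01 on a log axis, with HCmel12 replicate 4 circled and bars at the line means. Points on the dotted line are libraries without a count. Replicate 4 is the highest HCmel12 library in 19 of the genes and the lowest in Cxcl10. For Trib3, Nupr1, Ddit3, Asns and Slc1a4 it exceeds the B16F10 luc2 values while the other 4 lie below them.

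Of 62 genes of thiol and oxidative stress defence, 11 were at least 2-fold higher and 12 lower (median -0.03, or -0.09 without HCmel12 replicate 4). Slc40a1, the iron exporter ferroportin, was at 33.1, 44.2, 49.4, 42 and 43.6 CPM in B16F10 luc2. HCmel12 had 2.13, 1.67, 1.06, 1.52 and 2.97 CPM (log2 fold change 4.58, SE 0.23, adjusted p = 1.3e-15), without overlap. The selenoprotein genes Selenop (43.7 ± 8.95 against 264 ± 48.2 CPM, log2 fold change -2.58, SE 0.17, adjusted p = 7.6e-13) and Selenow (31.3 ± 0.885 against 169.8 ± 31.6 CPM, log2 fold change -2.39, SE 0.12, adjusted p = 2.8e-15) were lower in B16F10 luc2. The regulator Nfe2l2 did not pass the test (-0.11) but did under 6 alternatives. Nuclear genes of oxidative phosphorylation had the smallest share of members past 2-fold of all 36 lists, with 3 of 79 at least 2-fold higher, 0 lower and a median of 0.18. These 3 were Sdhb, a subunit of succinate dehydrogenase (359 ± 11.1 against 149 ± 9.18 CPM, log2 fold change 1.30, SE 0.05, adjusted p = 2.6e-17), Cycs, which encodes cytochrome c (232 ± 9.83 against 89.7 ± 6.31 CPM, log2 fold change 1.39, SE 0.06, adjusted p = 7.3e-17), and Cox7b (277 ± 16.7 against 123 ± 7.92 CPM, log2 fold change 1.19, SE 0.06, adjusted p = 4.0e-15). The 13 mitochondrially encoded mRNAs had a median of -0.55, with 2 at least 2-fold lower in B16F10 luc2 and 1 without HCmel12 replicate 4, the library with the largest mitochondrial share. Among 51 genes of glycolysis and the hypoxia response, 8 were at least 2-fold higher and 6 lower (median -0.06, which turned to 0.03 without HCmel12 replicate 4). Hk1, the housekeeping hexokinase, was at 51.7, 53.1, 51.8, 48.8 and 55.3 CPM in B16F10 luc2. HCmel12 had 252, 266, 292, 281 and 310.4 CPM (log2 fold change -2.40, SE 0.08, adjusted p = 2.7e-19), while Hk2 was higher by less than 2-fold (0.97). P4ha2, a collagen prolyl hydroxylase, was higher (28.3 ± 2.34 against 2.58 ± 1.7 CPM, log2 fold change 3.68, SE 0.22, adjusted p = 4.7e-14). The hypoxia target Bnip3 did not pass the test (21.6 ± 5.26 against 27.6 ± 22 CPM, log2 fold change -0.11, SE 0.26, adjusted p = 0.74). HCmel12 replicate 4 was at 66.8 CPM, and the sign of the log2 fold change turned without it (0.27, adjusted p = 0.15).

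Hox genes, which record the position of a cell along the body axis, were the list with the highest median. Of 25 tested members, 20 were at least 2-fold higher in B16F10 luc2 and 2 lower (median 2.58). The count filter left out 14 more listed members. Hoxa10 was at 37.5, 50.4, 47.5, 45.2 and 46.9 CPM in B16F10 luc2 and 0.0409, 0.0408, 0, 0.0824 and 0.0826 CPM in HCmel12, a ratio of 925-fold, with a counting interval of 425 to 2519.6, in that direction. Hoxa11 was at 15.4 ± 1.29 CPM against 0 (at least 124-fold higher), although 33.9% of its 31-base sequences are shared, mostly with its antisense gene. Hoxa9 (3.49 ± 0.262 CPM) and Hoxb13 (2.11 ± 0.515 CPM) were each above 0 in 1 HCmel12 library. The 2 members lower in B16F10 luc2 were both of the HoxD cluster. Hoxd13 was at 10.9, 9.7, 12.1, 10.7 and 11.8 CPM in B16F10 luc2 and 46.3, 41.1, 38.2, 42.8 and 37.3 CPM in HCmel12 (log2 fold change -1.87, SE 0.08, adjusted p = 1.9e-16), without overlap, and Hoxd3 was at 1.55 ± 0.346 against 3.47 ± 0.622 CPM (log2 fold change -1.13, SE 0.25, adjusted p = 2.3e-04).

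Imprinted genes gave 6 at least 2-fold higher and 3 lower of 31 tested. Ppp1r9a, a neighbour of Peg10, was at 35.2, 33.2, 35.4, 35.9 and 38.2 CPM in B16F10 luc2. HCmel12 had 0, 0.123, 0.0408, 0.165 and 0.0826 CPM (log2 fold change 8.81, SE 0.39, adjusted p = 1.2e-16). Zrsr1, another imprinted gene, was at 0.257 ± 0.102 against 14.4 ± 1.8 CPM (log2 fold change -5.76, SE 0.34, adjusted p = 4.9e-14). Of the sex chromosome genes, Xist, the RNA that coats the inactive X chromosome, was at 241, 178, 175, 257 and 208 CPM in HCmel12 and 0.0394, 0.123, 0.0412, 0 and 0 CPM in B16F10 luc2, and the means of the other lines were at most 0.0644 CPM. Kdm5c, which escapes X inactivation, was lower in B16F10 luc2 (46.1 ± 2.42 against 198 ± 7.83 CPM, log2 fold change -2.08, SE 0.06, adjusted p = 1.8e-20). Of 54 listed germ cell genes found in the files, 11 had counts enough to be tested, with 3 at least 2-fold higher and 7 lower. Their median was -1.91, and the 3 higher genes were the paralogs Xlr3a, Xlr3b and Xlr3c. The count filter left out the other 43 listed genes, so this median describes the tested members alone. Xlr3c was at 45.5 ± 1.74 CPM against 0 and Magea8, one of the lower genes, at 0 against 10.8 ± 0.58 CPM, with 82.2% and 57.1% of their 31-base sequences shared with other genes.

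Of 45 glycosyltransferase genes, 8 were at least 2-fold higher and 14 lower (median -0.27, or -0.11 at that smallest difference). B4galnt1, the GM2/GD2 synthase of gangliosides, was lower in B16F10 luc2 (0.145 ± 0.0639 against 14.6 ± 1.58 CPM, log2 fold change -6.51, SE 0.35, adjusted p = 6.9e-15). Mgat5, which branches N-glycans, was at 346, 282, 256, 307 and 295 CPM in B16F10 luc2. HCmel12 had 80.5, 70.6, 81.2, 58.6 and 68.9 CPM (log2 fold change 2.07, SE 0.16, adjusted p = 7.0e-12), higher without overlap. Ion channels and neurotransmitter receptors gave 13 at least 2-fold higher and 16 lower of 57 tested (median -0.23, or -0.07 at that smallest difference). The AMPA receptor gene Gria4 was at 0.197 ± 0.108 against 83.5 ± 6.15 CPM (log2 fold change -8.76, SE 0.56, adjusted p = 2.2e-13). The inward rectifier Kcnj10 was at 43.6 ± 10.1 CPM in HCmel12 and above 0 in 2 B16F10 luc2 libraries. The potassium channel subunit Kcnab2 was at 136 ± 9.75 against 0.845 ± 0.16 CPM (log2 fold change 7.33, SE 0.27, adjusted p = 2.9e-18).

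The labelled cell type was checked with marker lists. The 7 melanocyte markers were above 3 counts in both lines and summed to 27951 to 30003 CPM in B16F10 luc2 and 12323 to 18032 CPM in HCmel12. Of 7 fibroblast markers, 3 were above 3 counts in B16F10 luc2 and 5 in HCmel12, and their sums were 20.6 to 28.6 CPM and 1.39 to 1.92 CPM. The 11 macrophage markers summed to 6.62 to 8.70 CPM and 3.81 to 5.91 CPM, with Adgre1, C1qc and Tyrobp at 0 in all 10 libraries. The 8 endothelial markers summed to 2.96 to 3.33 CPM in B16F10 luc2 and 26.7 to 39.9 CPM in HCmel12, most of it Kdr. The 6 Schwann cell markers summed to 93.6 to 118 CPM and 1079 to 1363 CPM, most of it Mbp in HCmel12. T and B cell markers did not exceed 0.490 CPM in sum, Krt1, Krt5, Krt10, Krt14 and Trp63 were at 0 throughout, and red blood cell markers did not exceed 0.137 CPM. The part of other cells in these differences was not tested.

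The differences were not spread evenly over the genome. On chromosome 6 the median log2 fold change of 776 tested genes was 0.57, 60.8% of them were higher in B16F10 luc2 and 30.8% at least 2-fold higher, against 35.3% and 12.2% of all tested genes. Chromosomes 12, 10 and 15 had medians of 0.44, 0.25 and 0.21. In the other direction the median was -0.45 for 485 genes of the X chromosome, of which 54.6% were lower and 32.2% at least 2-fold lower, against 33.8% and 16% of all tested genes. Chromosomes 18, 14 and 13 followed with -0.40, -0.35 and -0.26. When each library was put in place of its line, every one of these medians kept its sign. On the mitochondrial genome the median was -0.65 over 21 genes and on the Y chromosome -0.39 over 10 genes, with wide ranges over the libraries. RNA counts do not separate a difference in gene copies from one in transcription per copy, and this was not tested.

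**Figure D5:**
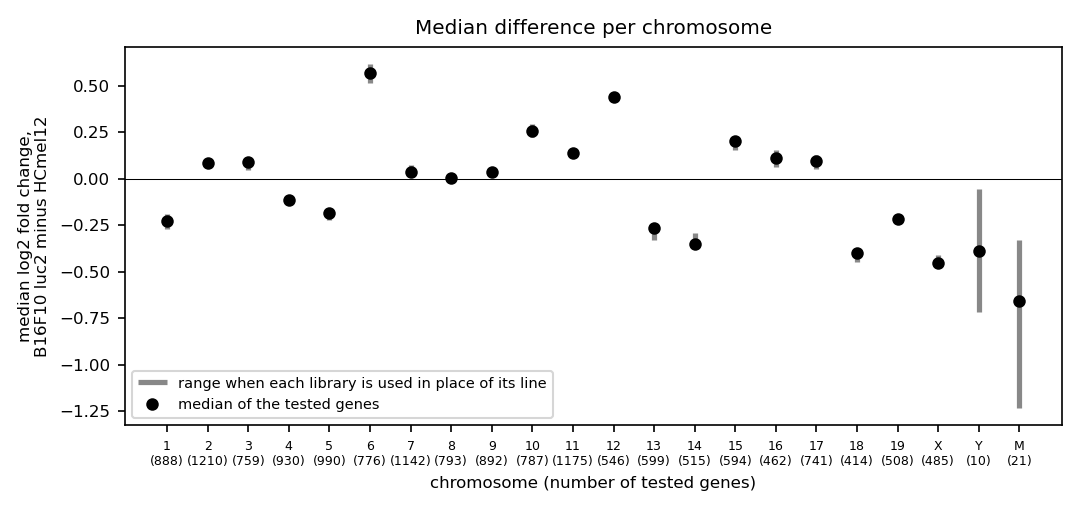
Median log2 fold change, B16F10 luc2 minus HCmel12, of the tested genes of each chromosome (number of genes in brackets). Points are the medians from the weighted fit of all libraries, and bars span the medians of plain log2 CPM differences when each single library was used in place of the mean of its line. Chromosome 6 (0.57) and chromosome 12 (0.44) lie highest and, apart from the mitochondrial genome, the X chromosome (-0.45) lowest.

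The promoters of the differing genes were also described by their base composition. A ratio of observed to expected CpG above 0.6 in the 250 bases before the start was found for 75.5% of the 10342 tested protein-coding genes with a listed promoter, for 59.8% of those at least 2-fold higher in B16F10 luc2 and for 62.7% of those at least 2-fold lower. Among genes found in one line only the shares were 47.3% (B16F10 luc2, 91 promoters) and 57.3% (HCmel12, 171 promoters). These shares were not tested.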

How the data were processed

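Bulk RNA of 25 cultures of 5 mouse melanoma lines was sequenced, and the 10 libraries of B16F10 luc2 and HCmel12, 5 of each by label, were compared. The authors trimmed reads with Trim Galore 0.6.4 and quantified them with kallisto (0.4.6 per the labels) against GRCm38.p6 transcripts, and deposited per-gene estimated counts, as kallisto divides reads between similar transcripts, and TPM (abundance scaled for transcript length, for 24 libraries here). Whether strand was used is not given in the sources used here, so antisense partners may share counts.

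Estimated counts of 55385 genes were scaled with TMM factors and filtered with filterByExpr by line (edgeR 4.0.16). They were fitted with voom and limma 3.58.1 (R 4.3.3) over all 25 libraries with line as the only term (20 residual degrees of freedom), and p-values were adjusted by Benjamini-Hochberg over the 15247 genes tested. CPM are counts per 1000000 of the library total. Folds against a line at 0 used a floor of 3 counts per library, and where no library of the lower line exceeded 3 counts the ratio of summed counts with an exact 95% Poisson interval was given. The fits were tested on simulated data first. Alternatives were other scalings, filters and tests (DESeq2 1.42.0), TPM, the replicate number as a block and leaving out single libraries. Motifs were searched in RefSeq promoters.

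The members and the gene lists were chosen with earlier results of these data known. Named genes were the 15 with the largest change in each direction among called genes without overlap and at least 10 CPM in the higher line (predicted genes, pseudogenes and ribosomal protein genes left out), up to 4 per list and direction called at 2-fold and at least 1 CPM, genes altered in these lines by origin, and melanocyte markers. Others were added after their values were seen, and some genes under the rule are not reported here.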

Additional observations from a re-analysis of the deposited data

Results flagged for a closer look

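Among the 266 genes named with values, 469 groups of 5 libraries were above 3 counts, and in 48 of them 1 library lay beyond Dixon's 95% limit for its group. Chance does so in about 1 of 20 groups. Some of these genes were named after their values were seen, among them genes in which HCmel12 replicate 4 stood apart. The counts therefore cannot be set against that rate. HCmel12 replicate 4 was that library in 33 cases, and no explanation for it was tested.

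In stress and amino acid genes it was high against the range of the other 4 HCmel12 libraries. These were Trib3 (66.7 against 2.08 to 6.69 CPM), Chac1 (15.1 against 1.47 to 1.88 CPM), Nupr1 (20.9 against 0.327 to 0.744 CPM), Ddit3 (70.4 against 13.6 to 22.9 CPM), Asns (356 against 153 to 161 CPM) and Slc1a4 (51 against 8.17 to 11.2 CPM). Stc2 (13.8 against 3.96 to 6.2 CPM) belonged to the same group.

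In immune genes it was high in Isg15 (7.78 against 1.55 to 2.07 CPM), Irf7 (6.05 against 0.571 to 0.941 CPM), Ifit3 (6.37 against 1.28 to 2.58 CPM), Gbp7 (7.77 against 2.93 to 3.6 CPM), Psmb8 (2.1 against 0.776 to 0.979 CPM) and Psmb9 (1.31 against 0.285 to 0.368 CPM). It was also high in Tap1 (3.21 against 0.694 to 1.18 CPM) and Cd274 (56.6 against 19.5 to 29.5 CPM), and low in Cxcl10 (23 against 46.3 to 51.1 CPM).

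In pigment genes it was high in Tyr (30.7 against 6.41 to 9.36 CPM), Dct (5147 against 2406 to 2652 CPM), Gpr143 (13.7 against 5.15 to 6.48 CPM) and Slc45a2 (477 against 268 to 307 CPM). In genes of adhesion, caveolae and matrix it was high in Cav1 (489 against 283 to 299 CPM), Cdh1 (15.5 against 3.83 to 7.08 CPM), Cdh13 (139 against 82.5 to 95.3 CPM), Hpse (1.65 against 0.0408 to 0.165 CPM) and P4ha2 (5.48 against 1.14 to 2.4 CPM).

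It was high in Vegfa (70.2 against 26.7 to 34.7 CPM), Bnip3 (66.8 against 15.7 to 21.3 CPM), Jag2 (8.28 against 3.02 to 4.34 CPM), Zeb1 (1.64 against 0.163 to 0.367 CPM) and Pdgfrb (0.124 against 0 CPM), of which Pdgfrb had only about 3 counts in that library. It was low in Trp53 (187 against 238 to 252 CPM) and Mtap (181 against 256 to 273 CPM). Among imprinted genes it was low in Mest (37.4 against 93.4 to 115 CPM).

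HCmel12 replicate 3 was high in the proliferation markers Mki67 (399 against 291 to 299.9 CPM) and Top2a (696 against 459 to 485 CPM) and in Col15a1 (8.97 against 4.88 to 5.92 CPM), and low in Gpc3 (0.815 against 1.61 to 1.88 CPM). HCmel12 replicate 5 was low in Itgb4 (0.537 against 1.03 to 1.14 CPM). In B16F10 luc2 the libraries beyond the limit were few counts apart in several cases. Replicate 1 stood out in Itga7 (0.512 against 0.864 to 0.992 CPM), Mmp2 (7.17 against 5.91 to 6.23 CPM), Oca2 (8.99 against 6.99 to 7.35 CPM) and Tgfa (0.158 against 0 to 0.0412 CPM), and replicate 2 in Prex1 (0.206 against 0.0394 to 0.0788 CPM). Replicate 3 stood out in Itga2 (0.289 against 0.0394 to 0.0821 CPM), Lgi4 (0.199 against 0 to 0.0394 CPM) and Timp1 (21 against 19.099 to 19.4 CPM). The others were Tgfb1 (22.7 against 16.5 to 17.8 CPM) in replicate 4 and Cxcl10 (6.97 against 3.23 to 4.0 CPM) in replicate 5.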

How the results depend on the processing

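Of 266 named genes, 241 kept their direction and their side of the threshold under every alternative in which they were tested, which were 151 genes with the 10-count filter, 261 in DESeq2's test and 260 in the fits of the 2 lines alone. The total of 10543 calls stayed between 8287, with at least 10 counts required in every library of both lines, and 12058 with no filter. Between 10067 and 10422 of the main calls were shared, with the same sign, by the other scalings, edgeR's quasi-likelihood test, DESeq2, the replicate block over all 25 libraries and the fits that left out 1 library (10325 to 10579 calls in the latter). On TPM 9071 to 9686 were shared, and 1 or 2 genes were called in the opposite direction. DESeq2 size factors moved the median of all genes from 0.003 to -0.03, and the share of called genes that were higher lay between 47.9% and 53.7%, or at 43.2% with a 2-fold limit. With that limit 4289 genes were called, 1853 higher and 2436 lower. With a floor of 10 counts in place of 3, 272 genes were found in B16F10 luc2 only and 475 in HCmel12 only. Leaving out single libraries gave 143 to 156 and 261 to 290.

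Replicate numbers were not used as pairs in the main fit. Whether same-numbered cultures were handled together is not given in the sources used here. The deviations of same-numbered libraries correlated at -0.059 to 0.060, and not every library correlated best with its own number. With the replicate number as a block, 10599 genes were called in the fit of all 25 libraries and 9430 in that of the 2 lines, against 9704 without it. In the 2-line fit the block ended the calls of Trib3 (log2 fold change 1.46, adjusted p = 0.082), Nupr1 (0.90, adjusted p = 0.41) and Slc1a4 (adjusted p = 0.068). Ifnar1 was not called (0.17) and Itgb1 was (0.029) with the block, as in the same fit without it (0.13 and 0.019). Over all libraries the block gave a call to Ednrb (0.021) and Acaca (0.041).

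Over the fits that left out 1 library, the log2 fold change ranged from -0.25 to 0.27 for Bnip3, -0.46 to 0.086 for Tap1, -0.32 to 0.024 for Vegfa and -0.78 to 0.0092 for Zeb1, with the highest values without HCmel12 replicate 4 and no call in these fits. Without that library Isg15 lost the call, and Asns, Ccnd1, Itgb1 and Acaca gained it. Leaving out other single libraries gave calls to Ednrb (B16F10 luc2 replicate 1 or 5), Nfe2l2 (B16F10 luc2 replicate 1 or HCmel12 replicate 5) and Acaca (replicate 2 of either line). Ifnar1 lost its call without B16F10 luc2 replicate 2, 4 or 5 or HCmel12 replicate 2, 3 or 5, and with 8 other settings. In edgeR's test Tyrp1 (adjusted p = 0.23), Dct (0.075), Trib3 (0.15), Nupr1 (0.72) and Slc1a4 (0.065) lost it, and in DESeq2 Sox10 (0.43), Nupr1 (0.80), Slc1a4 (0.099) and Ifnar1 (0.13). DESeq2 gained Zeb1 (log2 fold change -1.27, adjusted p = 0.031), Ifit3 (0.033, and 0.048 in edgeR), Itgb1 (0.025), Acaca (0.022) and Nfe2l2 (0.017). On TPM, Trp53 (0.051 to 0.11), Zeb2 and Mmp14 lost the call in all 3 fits, Sox10 and Tyrp1 with a pseudocount of 0.1, and Ifnar1, Yap1 and Col11a1 with all detected genes. With no filter Sdc3 lost it. With DESeq2 size factors, library size alone or the 10-count filter Itgb1, Acaca and Nfe2l2 gained it. The cause was not tested. Of the 72 counts of list members at 2-fold, 46 moved by more than 1.5 times with the 10-count filter, which tests fewer genes, and 24 on TPM with a pseudocount of 1, which shrinks low genes. At most 5 did so under any other alternative. Depth limits genes under about 0.12 CPM, the worth of 3 counts.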

Other observations

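Heparan sulfate chains of the cell surface hold growth factors, and a few genes of their core proteins and of their trimming were described after their values were seen. The glypican Gpc4, a core protein, was at 0 in all 5 B16F10 luc2 libraries and at 8.51, 9.92, 8.24, 10.4 and 10.4 CPM in HCmel12, at least 76.7-fold lower in B16F10 luc2. Gpc3, another glypican, was at 1.54 ± 0.418 CPM in HCmel12 and above 0 in 1 B16F10 luc2 library, a ratio of 191-fold, with a counting interval of 34.2 to 7535, in that direction. The means of the other lines were at most 0.0404 CPM for Gpc3. Sulf2, a sulfatase that trims the chains outside the cell, was at 48.7, 45.2, 51.9, 51.1 and 47.4 CPM in B16F10 luc2. HCmel12 had 168, 182, 163, 162 and 173 CPM (log2 fold change -1.78, SE 0.13, adjusted p = 3.1e-12). No value of one line reached the other in these 3 genes. Of further core proteins, Sdc4 was lower in B16F10 luc2 (log2 fold change -1.34), and Gpc1 (-0.49), Gpc6 (-0.57), Sdc1 (-0.43), Sdc2 (0.41) and Sdc3 (0.28) differed by less than 2-fold.

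The oxygen-regulated factors Epas1 and Hif3a took opposite directions. Epas1, which encodes HIF-2alpha, was at 3.07, 2.1, 3.03, 2.46 and 2.36 CPM in B16F10 luc2. HCmel12 had 12.8, 15.1, 15.9, 13.9 and 16.1 CPM (log2 fold change -2.48, SE 0.25, adjusted p = 1.3e-09). Hif3a was at 2.36, 6.7, 4.95, 3.49 and 7.16 CPM in B16F10 luc2 and above 0 in 2 HCmel12 libraries, a ratio of 301-fold, with a counting interval of 83.3 to 2484, and the means of the other lines were at most 0.0567 CPM. Among imprinted genes, the transporter Slc22a18 (15.7 ± 1.18 against 0.953 ± 0.448 CPM, log2 fold change 4.15, SE 0.22, adjusted p = 5.9e-15) and the CDK inhibitor gene Cdkn1c (3.46 ± 0.936 against 0.755 ± 0.357 CPM, log2 fold change 2.27, SE 0.30, adjusted p = 2.0e-07) were higher in B16F10 luc2. Mest was lower (19.7 ± 4.03 against 87.9 ± 29.4 CPM, log2 fold change -2.06, SE 0.26, adjusted p = 1.0e-07). Between 22% and 27.2% of the 31-base sequences of Mest and Cdkn1c occur in other genes.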
